A study of Homo sapiens with 5 samples.

Results

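The locus described here is a stretch of 690 kb on human chromosome 1, chr1:198560000-199250000 in hg19, that holds PTPRC and the chromatin beyond its 3' end, including the miR-181a and miR-181b genes MIR181A1 and MIR181B1 and their host transcript MIR181A1HG. Its members are the 102 deposited CUT&RUN peaks that touch this window, of 51392 peaks on chromosomes 1 to 22 and X. The members are 20 peaks from the H3K4me3 list of 13181, 68 from the RUNX1 list of 36736 and 14 from the SMA4 list of 1475. The window was chosen by the deposited peak positions themselves, because it contains one of the richest groups of SMA4 peaks and a dense group of RUNX1 peaks, so its high peak density is given as a description and was not tested.

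All libraries came from MOLT-4 cells, a long-established line from a human T cell acute lymphoblastic leukaemia, grown in RPMI-1640 with serum and antibiotics, and the labels name no drug or genetic change. In CUT&RUN an antibody tethers micrococcal nuclease to its target in chromatin, and the released fragments are sequenced. There was 1 library each for H3K4me3, for RUNX1 and for a target that the labels spell SMA4, plus 2 IgG controls, which were not used here. With 1 library per antibody and no score, summit or read count in the lists, no difference has a replicate check, no test was made and the depth behind a peak is unknown. The SMA4 list came from another batch folder and another peak-calling pipeline than the other lists, so antibody, batch and pipeline cannot be told apart in it.

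PTPRC encodes CD45, the receptor-type tyrosine phosphatase of nucleated blood cells, which removes inhibitory phosphate from LCK and FYN and so sets how readily the T cell receptor can signal. miR-181a is abundant in immature thymocytes, where it raises the sensitivity of T cell receptor signalling by repressing several phosphatases of the pathway. RUNX1 is a runt-domain transcription factor that works with CBFB and is needed for early T cell development. H3K4me3 is the histone mark of active and poised promoters.

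The 5p arms of both miRNAs carry the same seed, the bases that pair with target transcripts, and these are the products that the noncoding part of the locus is known for. The sequences are those of RefSeq (GRCh38.p14, minus strand), 5' to 3', with the seed (bases 2 to 8) in capitals.
hsa-miR-181a-5p: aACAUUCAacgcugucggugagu
hsa-miR-181b-5p: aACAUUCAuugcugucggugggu
hsa-miR-181a-3p: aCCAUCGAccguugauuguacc
hsa-miR-181b-3p: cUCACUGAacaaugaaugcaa

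Counted from 1 at the 5' end of miR-181a-5p, the 5p arms differ at 3 of 23 positions, A9U, C10U and A21G, all outside the seed. The seed ACAUUCA is shared by 5 of the 2370 mature names in the RefSeq table, miR-181a-5p, miR-181b-5p, miR-181c-5p, miR-181d-5p and miR-4262. The 3p arms of miR-181a and miR-181b do not share that seed. In the GRCh38 gene order, the neighbours from left to right include ATP6V1G3, PTPRC, PTPRC-AS1, MIR181A1HG with MIR181B1 and MIR181A1 inside it, LINC01222, LINC01221 and LINC02789. Pseudogenes and genes with LOC names are left out. The next protein-coding gene is NR5A2. PTPRC is on the plus strand and MIR181A1HG on the minus strand, so the start of the host transcript lies on the far side of the miRNAs from PTPRC. Only PTPRC (198608098 to 198726605, 119 kb) and the approximate position of MIR181A1 (198.83 Mb) were used in hg19. No other gene was placed on the peaks.

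Peaks were frequent in this window. RUNX1 had 9.86 peaks per 100 kb against 1.48 over chromosome 1, H3K4me3 had 2.90 against 0.534, and SMA4 had 2.03 against 0.0690. RUNX1 peaks covered 10.7% of the window (73.9 kb), H3K4me3 peaks 2.32% (16.0 kb) and SMA4 peaks 0.587% (4.05 kb). The nearest H3K4me3 peaks outside lay 425 kb before and 1020 kb after the window. The nearest RUNX1 peaks were 33.5 kb before and 2.10 kb after it, and the nearest SMA4 peaks 411 kb before and 2.19 kb after it. That SMA4 peak, at 199252195 to 199252339 (145 bp), touches a RUNX1 peak at 199252099 to 199252408, which is the first one past the right edge. Just inside the edges were an SMA4 peak at 198582170 (141 bp) on the left and a RUNX1 peak at 199212824 (435 bp) on the right, which lay 22.2 and 36.7 kb from the edges.

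The peaks fell into 11 groups when peaks of any list were joined at the standard stitching gap of ROSE, a method that groups enhancers. Of these groups, 5 held peaks of all 3 lists and 4 held RUNX1 alone. RUNX1 peaks stood close together: 54 of 68 (79.4%) had another RUNX1 peak within 2 kb, against 36.4% of the whole list, and the median gap to the nearest was 494 bp against 5410 bp. The median width of the RUNX1 peaks was 698 bp against 645 bp for the list, and 39 of 68 were wider than the list's median, so the locus had more RUNX1 peaks and a tail of very wide ones rather than wide peaks throughout. Of the mark's peaks, 4 of 20 were wider than the list's median of 938 bp, and the median in the window was 292 bp.

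**Figure D1:**
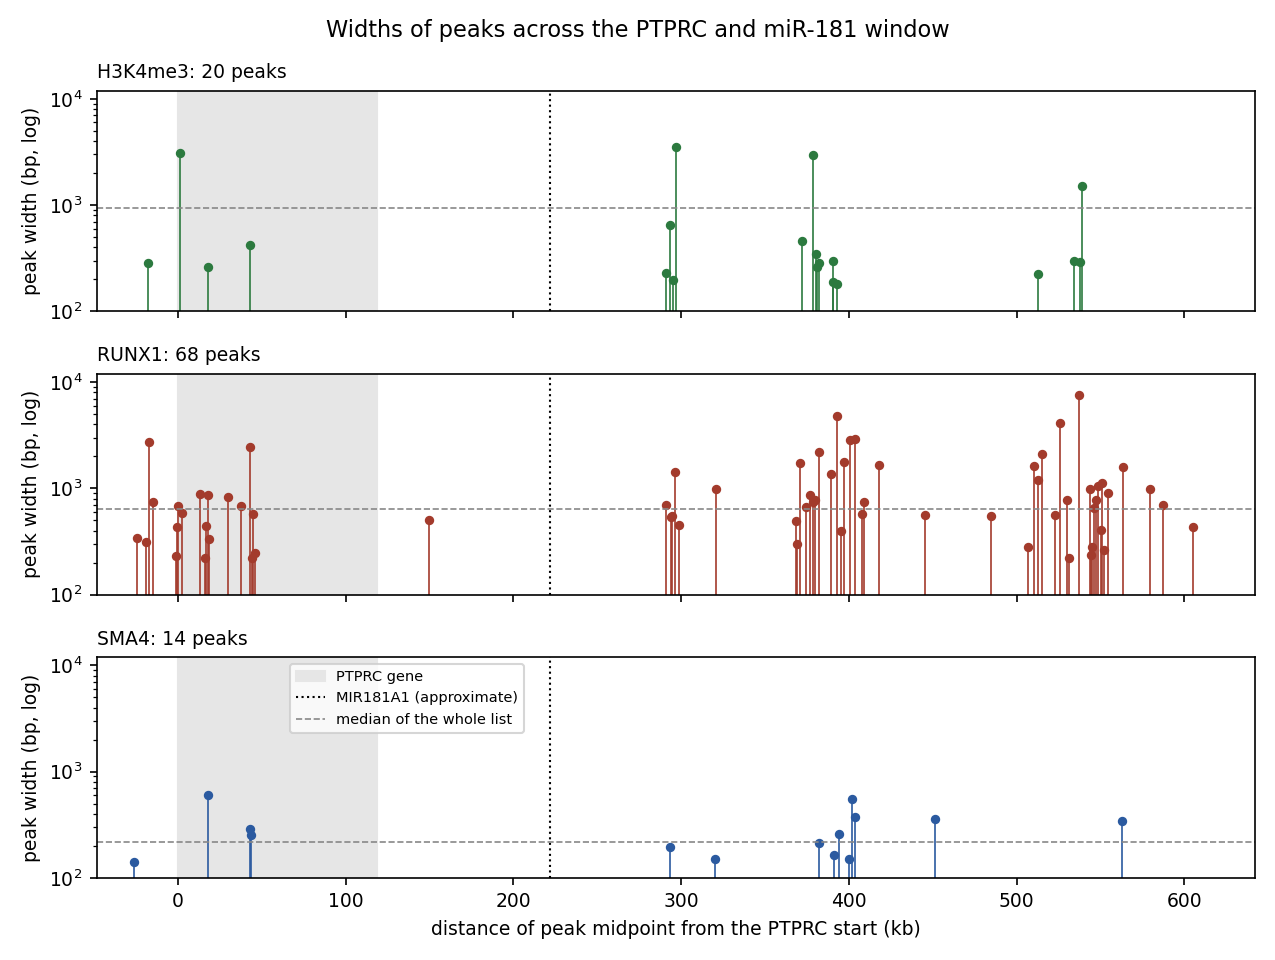
Width of each peak in bp (log axis) against the distance of its midpoint from the PTPRC start in kb, in separate panels for the 20 H3K4me3, 68 RUNX1 and 14 SMA4 peaks. Grey shading marks PTPRC, the dotted line the approximate position of MIR181A1 and the dashed line the median width of each whole list. The 3' part of PTPRC and the surroundings of MIR181A1 are nearly empty, and the widest RUNX1 peaks (4815 and 7615 bp) stand at 392.6 and 537.0 kb.

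The start of PTPRC carried a wide H3K4me3 peak. It ran from 198608020 to 198611146 (3127 bp, percentile 98.2 of the list's widths), beginning 78 bp before the gene's start, with 97.5% of its width inside the gene. RUNX1 peaks sat at its upstream edge and inside it. The peak at 198607773 to 198608447 (675 bp) covered the gene's start and shared 428 bp with the mark, and the peak at 198610301 to 198610882 (582 bp) lay wholly within it. Further RUNX1 peaks of 232 and 434 bp lay just upstream, at 198606792 and 198607184, without the mark. Together RUNX1 peaks covered 32.3% of the marked stretch. None of these peaks overlapped SMA4, whose nearest peak was 14362 bp from the mark.

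The RefSeq promoter of PTPRC is shown because a RUNX1 peak spans the gene's start. It runs from 250 bases before to 50 bases after the transcript start in GRCh38.p14, plus strand, 5' to 3', with the transcribed bases in capitals. That start was not placed in hg19.
PTPRC promoter: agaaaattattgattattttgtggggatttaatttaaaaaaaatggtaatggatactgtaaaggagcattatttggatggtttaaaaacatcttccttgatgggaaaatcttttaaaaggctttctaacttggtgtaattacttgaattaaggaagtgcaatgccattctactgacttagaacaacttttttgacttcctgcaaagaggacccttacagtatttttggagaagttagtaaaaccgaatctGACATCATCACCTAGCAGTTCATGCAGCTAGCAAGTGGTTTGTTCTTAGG

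This stretch was poor in GC for a promoter, at 33.7% against a median of 58.7% over 35116 RefSeq promoters of the same length, and held 1 CpG against a median of 14. The MIR181A1HG promoter had 42.3% GC and 0 CpG. Neither window held TGTGGT, the core letters of the runt-domain motif, on either strand. TGTGGT was found in 13.1% of the 35116 promoters, and the longer TGTGGTT, which contains it, in 4.27%. No match says only that these letters are not in these 300 bases, whereas the RUNX1 peak at the start is wider than that.

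Within PTPRC, peaks of all lists stopped in the 5' part of the gene. The gene held 13 RUNX1, 3 H3K4me3 and 3 SMA4 peaks, and the last of them, a RUNX1 peak of 244 bp, ended 46.0 kb into the gene. The remaining 72.5 kb, 61.1% of the gene, had no peak of any list. The chromosome 1 rate of 1.48 RUNX1 peaks per 100 kb would also give few in that length. The intragenic peaks formed smaller clumps. The first lay 17.7 kb into the gene, where a RUNX1 peak at 198625358 to 198626230 (873 bp) contained a 598 bp SMA4 peak starting at 198625509 and a 259 bp H3K4me3 peak starting at 198625830. The SMA4 peak was at percentile 96.6 of its list by width, the widest in the window, and its midpoint lay 13 bp from that of the RUNX1 peak. RUNX1 peaks of 221, 444 and 335 bp flanked it.

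The second clump lay 42.7 kb into PTPRC and centred on a RUNX1 peak of 2447 bp at 198649536 to 198651982 (percentile 98.1). It held 2 SMA4 peaks, of 291 bp at 198651118 and of 253 bp at 198651760, of which the second ran past its right edge, and an H3K4me3 peak of 418 bp at 198650918. RUNX1 peaks of 221, 570 and 244 bp followed on its right. Both intragenic SMA4 sites of PTPRC thus lay at RUNX1 peaks with a narrow H3K4me3 peak. Between them stood RUNX1 peaks of 826 and 682 bp with neither, 30.1 and 37.5 kb into the gene.

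Upstream of PTPRC there was a separate group, 25.9 to 14.3 kb before the start. Its RUNX1 peak at 198589552 to 198592272 (2721 bp, percentile 98.8) was the widest between the left edge and the end of PTPRC, and contained an H3K4me3 peak of 283 bp. RUNX1 peaks of 343, 310 and 743 bp stood beside it. The SMA4 peak of this group, at 198582170 to 198582310, had the smallest width in its list (141 bp) and was 1144 bp away from the nearest RUNX1 peak.

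The surroundings of the mature miRNA genes held no peak. The stretch between 198758301 and 198898896, 141 kb around the approximate position of MIR181A1, contained no peak of any list, and the stretch without H3K4me3 was 248 kb long. On the PTPRC side the nearest was a single RUNX1 peak of 507 bp at 198757795, 71.7 kb away. On the other side it was a RUNX1 peak of 701 bp at 198898896, 68.9 kb away, which opens a compact group of 7.98 kb. Chromosome 1 had 1.48 RUNX1, 0.534 H3K4me3 and 0.0690 SMA4 peaks per 100 kb, so stretches of these lengths would hold few peaks at that rate. The empty stretches are thus not shown to be particular to the miRNA genes. An absent peak at unknown depth does not show that the proteins or the mark were absent.

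The compact group held the widest H3K4me3 peak of the window, 198903293 to 198906820 (3528 bp, percentile 99.0, rank 131 in the list). It lies on the side from which MIR181A1HG is transcribed, 73.3 kb from the miRNA position, but the host transcript's start was not placed in hg19. The mark took up 57.8% of the group's span, the highest share of any group here. Narrower H3K4me3 peaks of 230, 652 and 198 bp stood beside it, at 198899024, 198901394 and 198902923. Each of the 5 RUNX1 peaks overlapped the mark. The RUNX1 peaks of 1415 bp (198903789 to 198905203) and 448 bp (198906425 to 198906872) lay inside the wide H3K4me3 peak and across its outer edge, and covered 51.3% of it. The others were 701, 543 and 547 bp wide. The single SMA4 peak, 195 bp at 198901489, overlapped the 652 bp H3K4me3 peak and the 543 bp RUNX1 peak but not the widest one. After a gap of 21.2 kb, an isolated RUNX1 peak of 996 bp at 198928074 contained an SMA4 peak of 150 bp at 198928332, with no H3K4me3 peak within 21253 bp.

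The third wide H3K4me3 peak lay in the left part of the group with most SMA4 peaks, which spans 50.4 kb from 198976446 to 199026837. It ran from 198985207 to 198988194 (2988 bp, percentile 97.8) and met 3 RUNX1 peaks, of 862, 746 and 781 bp, that covered 54.4% of it. Like the H3K4me3 peak at the PTPRC start and the one in the compact group, it had a RUNX1 peak across an edge and at least 1 wholly inside. A row of narrow H3K4me3 peaks followed: 350 bp at 198988332, 263 bp at 198989194 and 287 bp at 198990184. The 263 and 287 bp peaks were inside a 2198 bp RUNX1 peak that began at 198989171 and also held the first SMA4 peak of the group, 214 bp at 198990228. An H3K4me3 peak of 462 bp at 198979981 met the edge of a RUNX1 peak of 1751 bp.

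The other SMA4 peaks of this group lay further right, in very wide RUNX1 peaks. The RUNX1 peak at 198998333 to 199003147 (4815 bp) ranked 41 among 36736 by width. It contained SMA4 peaks of 164 bp at 198999139 and of 260 bp at 199002030, and H3K4me3 peaks of 190, 297 and 179 bp at 198998396, 198998725 and 199000902. The RUNX1 peak at 199007155 to 199010025 (2871 bp) contained SMA4 peaks of 152 bp at 199008307 and of 558 bp at 199009448, and the next, 199010194 to 199013129 (2936 bp), contained 1 of 374 bp at 199011331. These last RUNX1 peaks had no H3K4me3, and the nearest mark was 6074 and 9113 bp away.

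**Figure D2:**
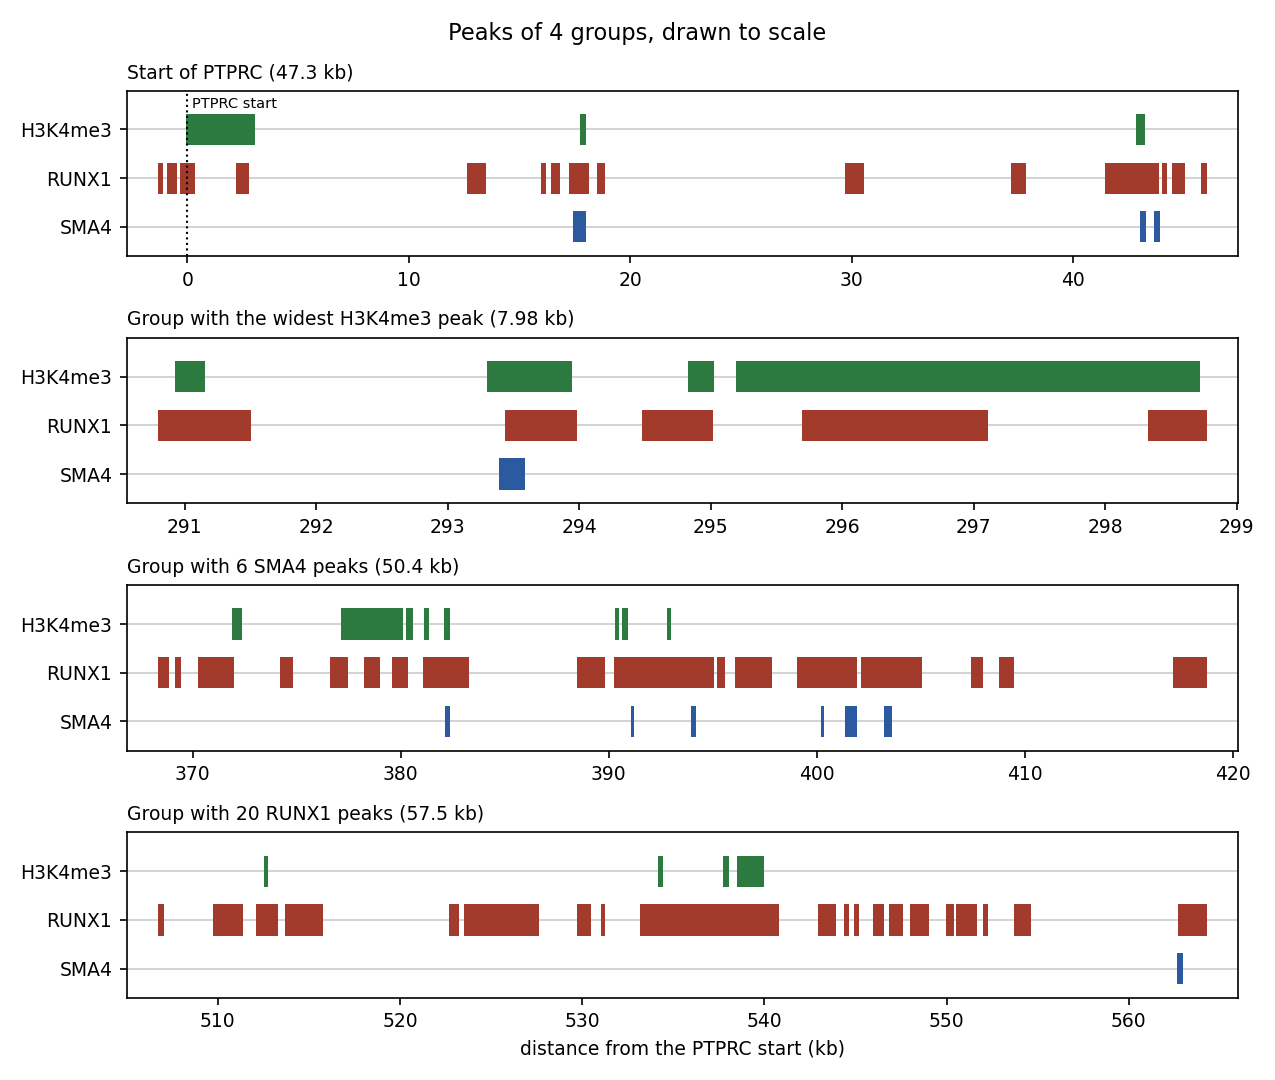
Peaks of 4 groups drawn to scale as bars, 1 row per list, against the distance from the PTPRC start in kb; the dotted line is the PTPRC start. In the upper panels RUNX1 bars are shorter than the wide H3K4me3 bars they meet (3127 and 3528 bp), and in the lower panels RUNX1 bars of 4815 and 7615 bp contain several H3K4me3 bars. The panels are not opposites. The third also has a 2988 bp H3K4me3 bar that meets shorter RUNX1 bars. The first has a 2447 bp RUNX1 bar that contains a 418 bp H3K4me3 bar.

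The next large group of RUNX1 peaks began 88.0 kb further on. In between lay a single SMA4 peak without RUNX1, 357 bp at 199059083 to 199059439, 5169 bp from a RUNX1 peak of 563 bp at 199053351. The only other RUNX1 peak in between was 546 bp wide, at 199092673.

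The RUNX1 group from 199114844 to 199172381 (57.5 kb) was the richest of the window, with 20 RUNX1 peaks that covered 26.8 kb of it. The RUNX1 peak at 199141281 to 199148895 was 7615 bp wide and ranked 6 among 36736. It contained 3 H3K4me3 peaks, of 296 bp at 199142241, 289 bp at 199145855 and 1499 bp at 199146572, so here the mark lay wholly inside RUNX1. In the whole list, 88 RUNX1 peaks met 3 or more H3K4me3 peaks, among them this one and the 4815 bp peak of the group with 6 SMA4 peaks. The RUNX1 peak at 199131592 to 199135748 (4157 bp, rank 67) had no peak of either other list, and the mark was 6492 bp away. Others of 1618, 1210 and 2086 bp lay on the left, at 199117848, 199120189 and 199121810, and the 1210 bp peak contained an H3K4me3 peak of 226 bp at 199120648. The right end was marked by a RUNX1 peak of 1593 bp at 199170789, where the only SMA4 peak of the group, 346 bp at 199170735, overlapped its left edge by 292 bp. This group thus had more RUNX1 peaks than the one with 6 SMA4 peaks (20 against 17) and nearly the same RUNX1 cover (46.6% against 49.5% of its span), but 1 SMA4 peak against 6. The difference was not tested, and each count comes from 1 library. The window was also chosen with these SMA4 and RUNX1 groups in view, so the contrast is partly built into the choice. Beyond the group with 20 RUNX1 peaks, RUNX1 peaks of 978 and 695 bp at 199187034 and 199195074 were joined in a further group. A RUNX1 peak of 435 bp stood alone at 199212824.

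The 2 large groups held 37 of the 68 RUNX1 peaks and 70.0% of the RUNX1 bases of the window. Of the 10 widest RUNX1 peaks, which were at least 1781 bp wide, 5 lay in the group with 6 SMA4 peaks and 3 in the group with 20 RUNX1 peaks. The remaining ones were the 2721 bp peak upstream of PTPRC and the 2447 bp peak inside it. Of these 10 peaks, 5 overlapped SMA4, 5 overlapped H3K4me3 and 3 overlapped neither. Over the whole RUNX1 list, peaks of all widths, 2.56% overlapped SMA4 and 32.2% overlapped H3K4me3. These 10 were picked by width, and list peaks that met SMA4 or the mark were wider than those that did not. The list medians were 1056 against 635 bp for SMA4 and 1012 against 527 bp for the mark.

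RUNX1 peaks were also joined over the whole genome, with RUNX1 alone and the same gap limit, which gave 20665 regions, of which 1064 held 5 or more peaks. The group with 20 RUNX1 peaks ranked 9 by bases in RUNX1 peaks (26.8 kb) and 13 by number of peaks, a number shared by 3 regions. The group with 6 SMA4 peaks ranked 12 by bases (24.9 kb) and 23 by number (17 peaks, shared by 5 regions). The group that begins at the PTPRC start spans 47.3 kb and reaches 46.0 kb into the gene. Its 15 RUNX1 peaks covered 9.67 kb of that span, and it ranked 137 by bases and 40 by number. The compact group with the widest H3K4me3 peak had 5 RUNX1 peaks that covered 3.65 kb and ranked 1230 by bases. For comparison, regions of 5 or more peaks had a median of 6 peaks and of 5.10 kb covered by peaks. Among the 20 regions with the most RUNX1 bases, the 2 large groups were the only pair less than 1 Mb apart, with 88.0 kb between them. The window was chosen with both groups in view, and the statement depends on the cut-offs of 20 regions and 1 Mb.

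**Figure D3:**
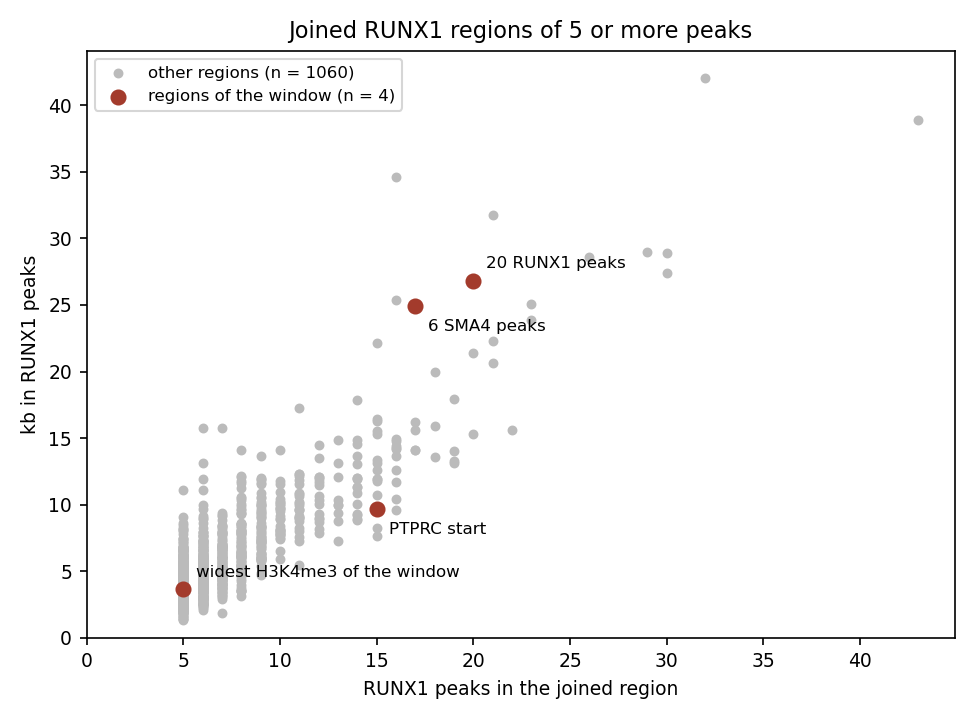
Number of RUNX1 peaks (horizontal) against kb in RUNX1 peaks (vertical) for the 1064 joined regions of 5 or more peaks; the 4 regions of the window are in red. The groups with 20 RUNX1 peaks and with 6 SMA4 peaks lie high for their number of peaks, at 26.8 and 24.9 kb. By contrast, the 15 peaks of the group labelled PTPRC start, which reaches 46.0 kb into the gene, cover 9.67 kb.

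Joined alone, SMA4 formed 5 regions of 5 or more peaks in the genome, and the one here (6 peaks in 21.5 kb) was the third by number, although joining over gaps of up to 5 kb left at most 3 SMA4 peaks together in this window. These regions differed in their RUNX1 content. RUNX1 peaks covered 64.7% of the region here and 49.9% of the richest, on chromosome 3 with 14 SMA4 peaks in 31.5 kb. They covered 14.4% of the other chromosome 3 region, with 7 SMA4 peaks in 11.3 kb, and 2.90% and 7.38% of the regions on chromosomes 7 and 4, with 5 SMA4 peaks each. The region here met 4 H3K4me3 peaks, the chromosome 3 regions 3 and 1, and the others 0. Of the 1064 RUNX1 regions of 5 or more peaks, 159 (14.9%) held any SMA4 peak and 3 held at least 5.

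Over the window as a whole, every H3K4me3 peak met RUNX1: 20 of 20 (100%, 95% Wilson interval 83.9 to 100%), against 88.1% of the whole H3K4me3 list. In the other direction, 18 of 68 RUNX1 peaks met the mark (26.5%, interval 17.4 to 38.0%), against 32.2% of the whole list. Both intervals, which cover counting error only, contain the value of the list. Counted at the midpoint of the RUNX1 peak, the second share was 14.7% (10 of 68) against 28.5% of the list. It was 23.5% with at least 50% of the shorter peak shared (list 31.3%) and 36.8% with peaks within 1 kb counted (list 35.1%). The RUNX1 peaks are close neighbours from 1 library in a chosen window, so the intervals are no test of a difference. The median width of RUNX1 peaks was 868 bp at the mark and 610 bp away from it, and in the whole list these medians were 1012 and 527 bp.

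SMA4 peaks met RUNX1 in 12 of 14 cases (85.7%, interval 60.1 to 96.0%), against 65.9% of the whole SMA4 list, and the mark in 4 of 14 (28.6%, interval 11.7 to 54.6%), against 21.8%. Again both intervals contain the list's value, and with peaks within 1 kb counted, 7 of the 14 met the mark against 24.7% of the list. Of the 12 SMA4 peaks at RUNX1, 9 lay wholly within the RUNX1 peak and 3 crossed its edge. They kept to no fixed place in it. Midpoints of 13 to 1519 bp apart were found, and the SMA4 midpoint lay between 7.44% and 96.0% of the way across the RUNX1 peak. The 4 SMA4 peaks at the mark also met RUNX1, 8 met RUNX1 alone and 2 met neither.

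The RUNX1 peaks that carried SMA4 numbered 9 of 68 (13.2%, interval 7.12 to 23.3%), against 2.56% of the whole RUNX1 list. The H3K4me3 peaks that carried it numbered 4 of 20 (interval 8.07 to 41.6%), against 2.39% of the whole list. The window was chosen for its SMA4 peaks, so these higher shares follow from the choice. The 9 RUNX1 peaks with SMA4 had a median of 2198 bp against 662 bp for those without. In the whole list these medians were 1056 and 635 bp, a difference in the same direction. In the window 3 RUNX1 peaks held 2 SMA4 peaks each, and 32 in the whole list held 2 or more. A wide peak can also meet other peaks more easily, and the cause of the difference in width was not tested.

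The H3K4me3 peaks that carried SMA4 here were the narrow ones. Their widths were 259, 287, 418 and 652 bp, a median of 352 bp, whereas H3K4me3 peaks with SMA4 in the whole list had a median of 1321 bp. None of the 4 H3K4me3 peaks wider than the list's median (1499, 2988, 3127 and 3528 bp) met SMA4, against 4 of the 16 others. In the whole list, 3.17% of the H3K4me3 peaks wider than the median and 1.61% of the others met SMA4. With 4 wide peaks, a share near 3.17% would also give 0 in most cases, so the 0 is no result about the locus.

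**Figure D4:**
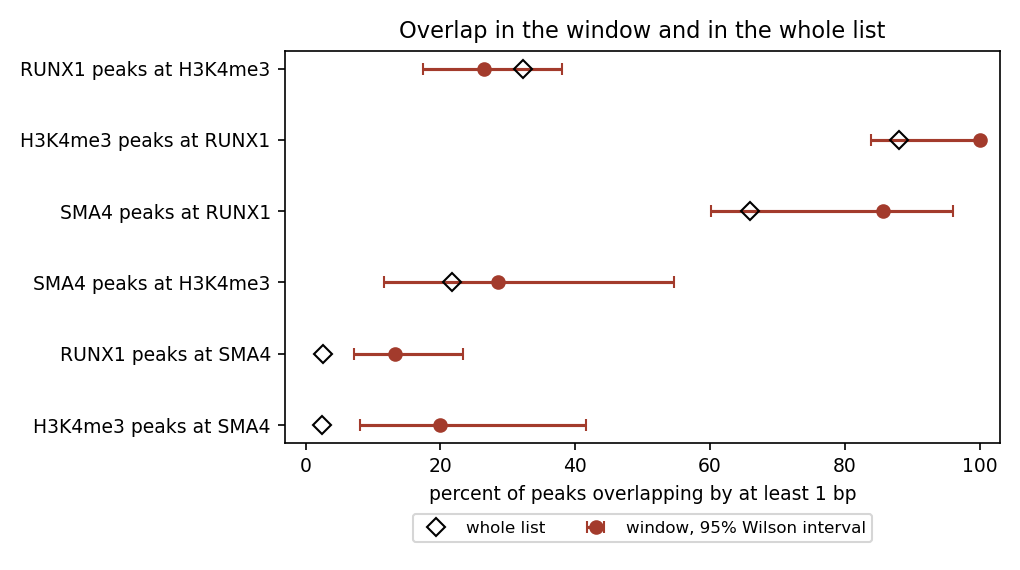
Percent of peaks overlapping a peak of another list by at least 1 bp (horizontal) for 6 pairs of lists. Red points are the window with 95% Wilson intervals and open diamonds the whole list. The intervals contain the whole-list value for the upper 4 pairs, and lie above it for RUNX1 and H3K4me3 peaks at SMA4 (13.2% against 2.56%, and 4 of 20 against 2.39%), for which the window was chosen.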

How the data were processed

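MOLT-4 chromatin was profiled by paired-end CUT&RUN. The authors deposited 1 peak list each for the H3K4me3, RUNX1 and SMA4 libraries, with chromosome, start, end and a running name. MACS2 made the H3K4me3 and RUNX1 lists (folder named for batch 2) and cutruntools the SMA4 list at a q threshold of 0.01 (folder named for batch 3), per the file headers. The build, hg19, and a further tool, SEACR, are named in the submitters' processing notes. The aligner, the subtracted control and the MACS2 threshold were not given in the sources used here.

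Starts were turned to 1-based coordinates. Only chromosomes 1 to 22 and X were kept (Python 3.11.15, pandas 2.3.3, SciPy 1.17.1). Peaks overlapped when they shared at least 1 bp. Neighbouring peaks were joined at the default stitching gap of ROSE. The chromosome density used the span from the first to the last peak of each list. Overlap and joining code was checked on simulated peaks. The window and lists were chosen with earlier results of these data known. Named peaks were all H3K4me3 and SMA4 peaks, and the RUNX1 peaks that were widest, overlapped another list, lay near the PTPRC start or MIR181A1, or bounded a group. Some RUNX1 peaks beside or between these were named as well. No hg19 annotation was used, so the planned counts at marker and pathway genes were not made. Sequences came from RefSeq tables of GRCh38.p14.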

Additional observations from a re-analysis of the deposited data

How the results depend on the processing

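The 14 values on the window were recomputed under 43 alternatives, of which 41 stayed within the interval of the value or within 1.5 times the count. Some alternatives could hardly move a value, because no peak crossed an edge of the window and few of its peaks had the minimum width. With overlap counted at the RUNX1 midpoint, the share of RUNX1 peaks at H3K4me3 fell from 26.5% to 14.7%, against 28.5% for the whole list. The cause was not tested. With SMA4 peaks joined over gaps of up to 5 kb, the largest SMA4 region held 3 peaks in place of 6. Merging peaks within 150 bp before the overlaps was added after the data had been seen. The share of SMA4 peaks at RUNX1 ranged from 85.7% to 92.3%. The lists hold no score, so a stricter threshold was replaced by leaving out peaks of the minimum width. The unknown depth of each library limits what an absent peak can show. No paired analysis was possible because each antibody had 1 library.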
